A study of Mus musculus with 76 samples.

Results

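The genes described here encode proteins that cut introns out of new transcripts, together with one protein that hands finished mRNA to the nuclear export machinery. They were chosen by symbol alone: every SR protein gene (Srsf), heterogeneous nuclear ribonucleoprotein gene (Hnrnp), small nuclear ribonucleoprotein gene (Snrp) and SF3A or SF3B subunit gene in the table, plus Alyref. This gave 53 of the 37980 genes in the table. They comprise 20 hnRNP genes, 11 SR protein genes, 9 SF3 subunit genes, 7 Sm protein genes, 2 genes of U1-specific proteins (Snrpa and Snrpc), 2 genes of U2-specific proteins (Snrpa1 and Snrpb2), Alyref and Snrpert. The 53 genes lie on 18 chromosomes. Another 3 rows that are annotated as copies of such genes were left out.

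Splicing is carried out by the spliceosome, which is built from small nuclear RNAs and their proteins. The Sm proteins form the ring around most of these RNAs, the U1-specific proteins help to recognise the start of an intron, and the U2-specific proteins with the SF3A and SF3B complexes recognise its branch point. SR proteins bind exons and mostly favour their inclusion, whereas many hnRNPs coat the transcript and mostly oppose it, so that the balance of the 2 families shapes alternative splicing. Alyref is an adaptor of the TREX complex, which passes spliced mRNA to the export receptor. In lymphocytes the best known target of such regulation is Ptprc, the gene of the phosphatase CD45, whose variable exons are skipped under Hnrnpll.

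RNA was measured in libraries of 1000 sorted cells each from C57BL/6 mice. Induced cells came from recipients, given a sublethal dose of radiation, of pro/pre-B cells that had been infected outside the body with a virus carrying the homeobox gene Hoxb5 and then sorted; they form 9 groups whose names carry an i in the labels. Those groups were early T progenitors of bone marrow (BM_iETPs, 2 libraries) and thymus (Thy_iETPs, 3), and thymocytes of the double negative stages iDN1 (4), iDN2 (2), iDN3 (3) and iDN4 (4), the double positive stage (iDP, 3) and the CD4 and CD8 single positive stages (iCD4_SP, 4, and iCD8_SP, 4). Natural cells form 15 groups: the same stages (BM_ETPs, 3, Thy_ETPs, 2, DN1, 3, DN2, 3, DN3, 2, DN4, 3, DP, 4, CD4_SP, 3, and CD8_SP, 3), mature T (3), mature myeloid (2) and mature B cells (4), pro/pre-B cells (ProPreB, 3), multipotent progenitors (MPP, 4) and hematopoietic stem cells (HSC, 4). The labels name no promoter that drives Hoxb5 and no cells infected with a virus lacking it, and they do not say whether the libraries of one group were taken from separate animals. The p-values below therefore measure only the spread between these libraries, which may be technical.

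Values are FPKM, fragments scaled to transcript length and sequencing depth, so levels can be compared between genes. Read from the spacing of each library's lowest values, a transcript of 1 kilobase at 1 FPKM stood on 0.971 to 11.2 fragments (median 4.23); both mature myeloid libraries lay at or under 0.986 and every other library at or above 2.35. Between 9828 and 12202 genes reached 1 FPKM in a library. The label of BM_iETPs did not match its markers: the 10 genes of the B lineage summed to 11447 and 11665 FPKM there, close to the 13470 to 14411 FPKM of pro/pre-B cells, against 70.9 to 88.4 FPKM in natural BM_ETPs. The 14 T lineage genes summed to 134 to 143 FPKM in BM_iETPs and 10.8 to 18.6 FPKM in natural BM_ETPs. Neither group thus had the T lineage level of the thymic groups, and HSC held 17.4 to 26.0 FPKM. Natural BM_ETPs were also high in 10 myeloid genes. The mean log2 level of these was 10.05 to 10.64 there, against 9.64 and 10.02 in mature myeloid cells. The sex-linked transcripts also separated the sources. Xist lay between 4.21 and 16.3 FPKM in the 24 induced libraries of DN1 to CD8_SP, against 0 to 1.78 FPKM in the 21 natural ones, and the Y-linked Ddx3y lay between 0 and 0.767 FPKM there, against 0.325 to 32.5 FPKM in the natural ones. Induced source and sex-linked expression cannot be told apart at these stages. The same holds for BM_iETPs against pro/pre-B cells. Xist lay between 8.65 and 10.4 FPKM in BM_iETPs and at 0 in pro/pre-B cells. Ddx3y lay at 0 in BM_iETPs and between 14.3 and 20.2 FPKM in pro/pre-B cells. Thy_iETPs held 2.65 to 4.385 FPKM of Ddx3y, against 0 in Thy_ETPs. In bulk samples, fewer cells of a type and less RNA per cell cannot be told apart either.

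Most of the 53 genes were expressed in every cell type. In all 75 libraries, 39 of them reached 10 FPKM or more. The highest median level over libraries belonged to Hnrnph1, an hnRNP that binds runs of guanine, at 934 FPKM. Only 6 members had a median under 10 FPKM: Hnrnpul1, Sf3a2, Sf3b4, Snrpert, Srsf12 and Srsf4. A level of 0 in any library was listed for 5 members, namely Alyref, Hnrnpll, Snrpert, Srsf12 and Srsf4. The standard deviation between libraries of a group, on the log2(FPKM + 1) scale, ran from 0.14 for Sf3b1 to 0.97 for Snrpert, with a median of 0.25. Snrpert is annotated as a processed pseudogene and is 98.9% identical to Snrpe over 279 bases, so reads of the 2 genes can be swapped. In all, 22 members have at least one other gene that is at least 95% identical over at least 200 bases, and Hnrnpa3, with 27 such genes, has the most; their levels depend on how the authors' pipeline placed shared reads.

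The summed level of the set differed between stages and, at several of them, between sources. Summed over the 53 genes, induced iDN4 libraries held 13056 to 14137 FPKM and natural DN4 libraries 13025 to 13259 FPKM. BM_iETPs lay near them, at 12845 and 13470 FPKM. At the low end were 6 groups whose ranges overlapped: Thy_iETPs (6805 to 6899 FPKM), natural DN1 (6482 to 6915 FPKM), mature myeloid cells (6645 to 6877 FPKM), mature T cells (6721 to 7993 FPKM), MPP (6614 to 7626 FPKM) and HSC (6525 to 7526 FPKM). Sources of one stage differed without overlap in bone marrow progenitors (12845 and 13470 FPKM in BM_iETPs, against 7719 to 8519 FPKM in BM_ETPs), at DN1 (8994 to 9177 FPKM in iDN1, against 6482 to 6915 FPKM in DN1) and in thymic progenitors (6805 to 6899 FPKM in Thy_iETPs, against 8352 and 9485 FPKM in Thy_ETPs). They also lay apart at DN3, with 9557 to 9785 FPKM in iDN3, against 10257 and 10416 FPKM in DN3. At DP the sums were 8945 to 9997 FPKM in iDP, against 10429 to 10773 FPKM in DP. Those of iCD8_SP, at 11705 to 12989 FPKM, lay above the 10184 to 11072 FPKM of CD8_SP. These sums weigh the most abundant genes most. By the mean log2 level of the members, mature myeloid cells (6.37 and 6.42) lay above the other groups named at the low end (5.84 to 6.14). Leaving mature myeloid cells aside, the highest group was iDN4 for 14 members, BM_iETPs for 12 and DN4 for 5. The groups with high levels were also those with high levels of proliferation genes: across the 24 groups the mean log2 level of the members and that of 20 proliferation genes had a Pearson r of 0.824. This is a description over groups whose libraries differ in depth and in total FPKM, which ran from 667700 to 2004000. The sums above were not scaled to equal totals. The part of cell division in the comparisons below was not tested.

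**Figure D1:**
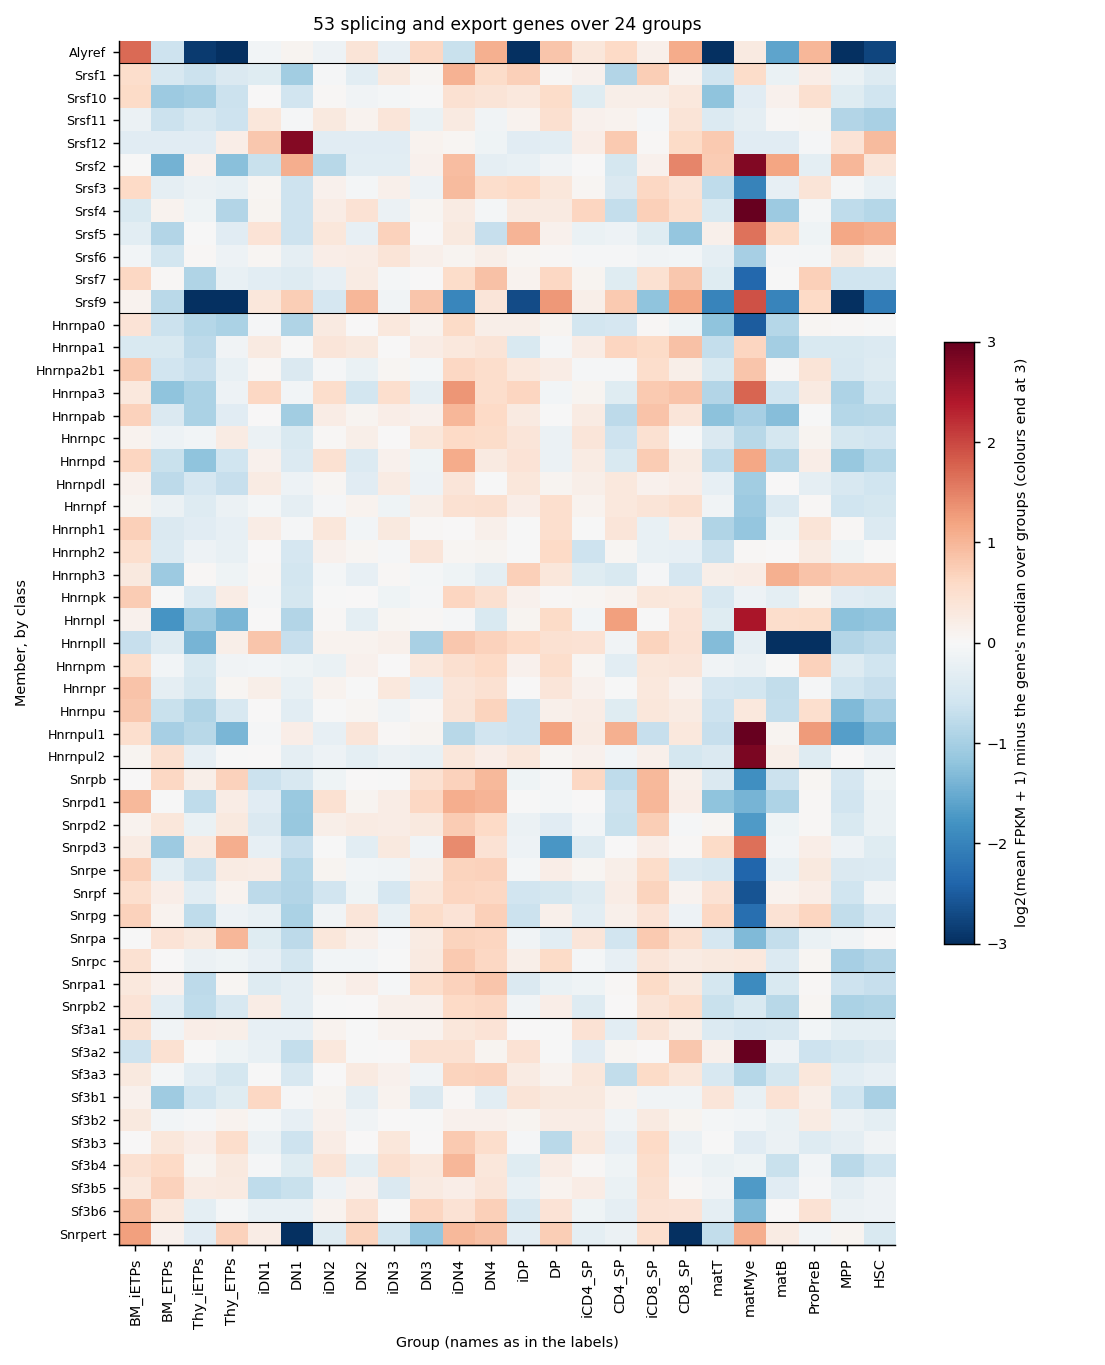
Level of each of the 53 genes (rows, by class) in each of the 24 groups (columns), as log2(mean FPKM + 1) minus the median of that gene over groups; colours end at 3. Hnrnpll is low in mature B and pro/pre-B cells, Alyref and Srsf9 are low in several separate groups, and mature myeloid cells differ from the rest in both directions.

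Hnrnpll set B lineage cells apart from all others. It was near 0 in B lineage cells: mature B libraries held 0.562, 0, 0 and 0 FPKM and pro/pre-B libraries 0.132, 0 and 4.11 FPKM. All other 68 libraries held at least 12.3 FPKM. It was the only one of the 53 members (1.89%) to lie below every other library in each of the 7 B lineage libraries, which 0.0689% of the genes tested did. The pro/pre-B library at 4.11 FPKM, library 4, was also the one whose 10 myeloid genes summed to 4628 FPKM, against 32.2 and 52.5 FPKM in the other 2 pro/pre-B libraries. BM_iETPs, whose B lineage genes were near the level of pro/pre-B cells, had 32.3 and 24.3 FPKM of Hnrnpll, against 34.5, 33.8 and 36.2 FPKM in natural BM_ETPs. By group mean the level was highest in iDN1 (77.7 to 86.2 FPKM) and iDN4 (75.5 to 88.4 FPKM), whose ranges overlapped. Outside the B lineage it was lowest in mature T cells (12.3 to 24.98 FPKM) and Thy_iETPs (12.6, 22.7 and 15.5 FPKM). The 5 tested genes whose group means were most like those of Hnrnpll over the 24 groups were Fuom, Mvb12b, Lcp2, Atxn10 and Gtf2ird1, with Pearson r of 0.829 to 0.856.

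**Figure D2:**
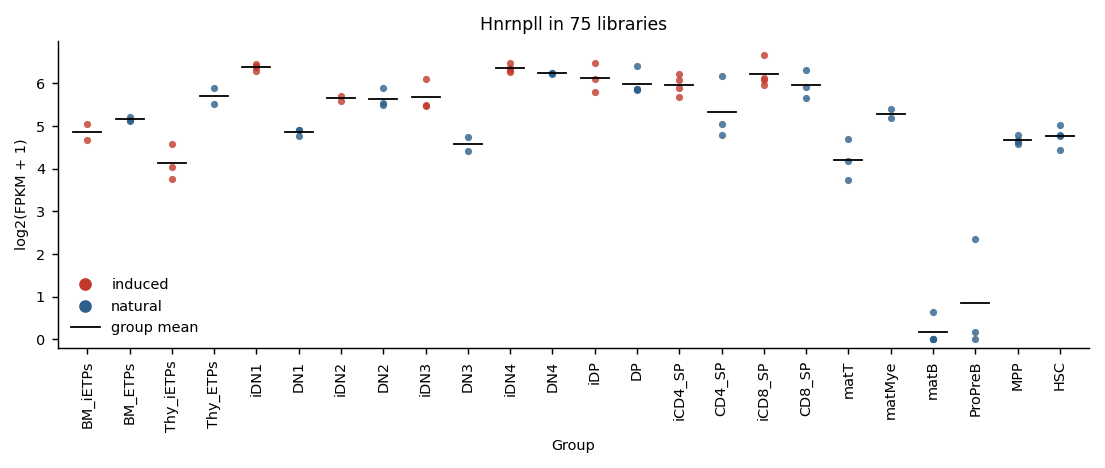
Hnrnpll in each of the 75 libraries (points) by group, as log2(FPKM + 1), with the group mean as a line; red marks induced and blue natural cells. The 7 libraries of mature B and pro/pre-B cells lie below all 68 others.

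Alyref split the libraries into a low and a high set. In 24 libraries it was under 12 FPKM, with 11.8 FPKM as the highest of them, and in the other libraries it was at least 20.8 FPKM. The low libraries were all 4 HSC, all 4 MPP, all 3 mature T, all 3 Thy_iETPs, both Thy_ETPs and all 3 iDP libraries, with 3 of 4 mature B libraries, 1 of 4 iDN4 libraries and 1 of 4 iCD8_SP libraries. The highest levels were in BM_iETPs, at 169 and 199 FPKM. Within single groups Alyref could differ widely: iCD8_SP libraries held 92.4, 4.77, 78.1 and 73.7 FPKM. Srsf9, an SR protein that acts in alternative splice site choice, had the group means most like those of Alyref among all genes tested (Pearson r 0.876 over 24 groups), followed by Sdf2l1, Polr2m, Prcc and Med30 (0.847 to 0.869). Between libraries within groups the r of Alyref and Srsf9 was 0.244. For Hnrnpul1, an hnRNP U-like protein that was also low in iDP, the r with Alyref was 0.571 over the 24 groups and -0.14 within groups. For Hnrnpu it was 0.822 over groups and 0.685 within groups. These groups share depth and base composition effects, and the values are descriptions. Alyref also has 1 near-identical gene of the kind described above. Over libraries its log2 level had a Pearson r of -0.423 with each library's slope of log2 level on GC content. The part of either in its levels was not tested.

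**Figure D3:**
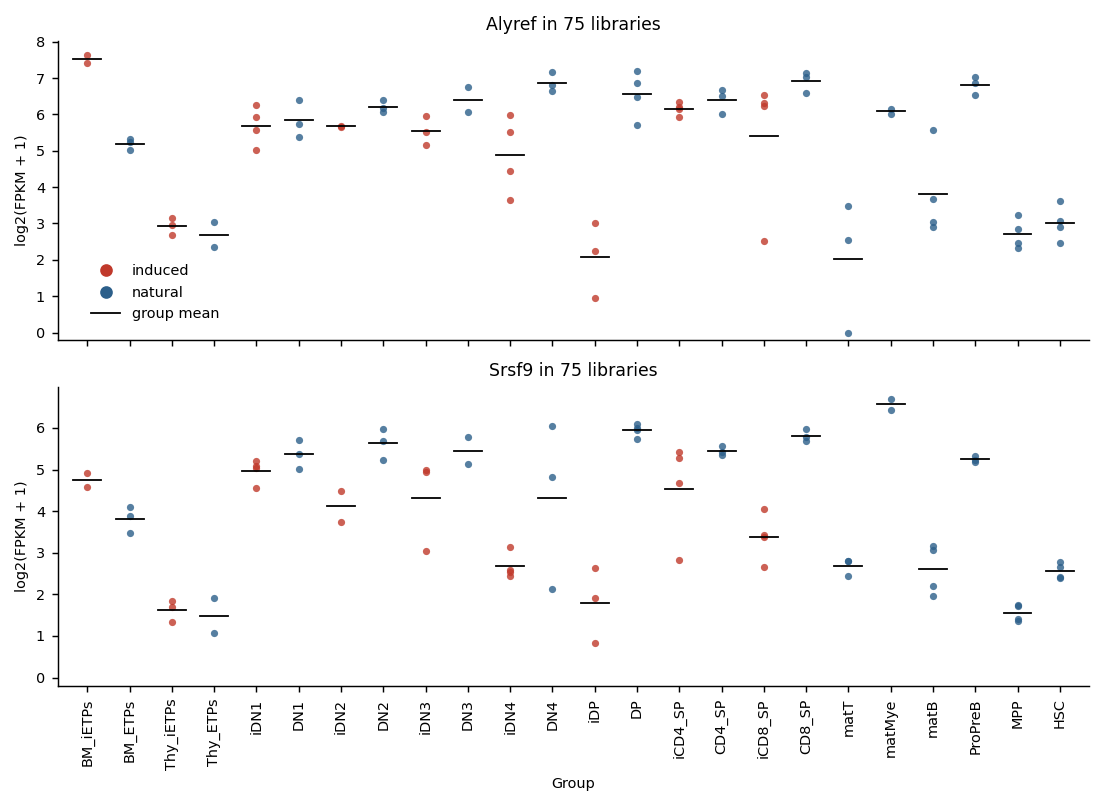
Alyref (upper panel) and Srsf9 (lower panel) in each of the 75 libraries by group, as log2(FPKM + 1), with the group mean as a line; red marks induced and blue natural cells. Both genes are low in iDP and high in DP, and both are low in early thymic progenitors, mature T cells, MPP and HSC.

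The promoters of Alyref, Srsf9 and Hnrnpul1 are shown because these 3 members fell together in iDP, as described below. Each sequence is a RefSeq promoter of GRCm38.p6, from 250 bases before to 50 bases after the start of the gene, in the direction of transcription. Capitals mark matches to motifs searched on both strands. The motifs were CCGGAAG or CTTCCGG for ETS factors, CCAAT or ATTGG for the CCAAT box, the NRF1 motif, TATAAA or TTTATA for the TATA box, TTTCCCGC or GCGGGAAA for E2F, AAGATGGCG or CGCCATCTT for YY1, and CACGTG for the E-box. Alyref (chr11:120598316-120598615, minus strand) holds ETS, CCAAT and TATA matches and 54 CpG dinucleotides, Srsf9 (chr5:115326927-115327226, plus strand) an NRF1 match and 32 CpG, and Hnrnpul1 (chr7:25754710-25755009, minus strand) CCAAT and E2F matches and 26 CpG.
Alyref: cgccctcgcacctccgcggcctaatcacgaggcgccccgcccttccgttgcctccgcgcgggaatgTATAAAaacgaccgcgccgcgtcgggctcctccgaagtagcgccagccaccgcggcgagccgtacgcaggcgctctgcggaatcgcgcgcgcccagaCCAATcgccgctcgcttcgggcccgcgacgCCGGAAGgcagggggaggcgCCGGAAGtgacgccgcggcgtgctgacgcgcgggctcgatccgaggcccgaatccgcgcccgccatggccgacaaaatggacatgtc
Srsf9: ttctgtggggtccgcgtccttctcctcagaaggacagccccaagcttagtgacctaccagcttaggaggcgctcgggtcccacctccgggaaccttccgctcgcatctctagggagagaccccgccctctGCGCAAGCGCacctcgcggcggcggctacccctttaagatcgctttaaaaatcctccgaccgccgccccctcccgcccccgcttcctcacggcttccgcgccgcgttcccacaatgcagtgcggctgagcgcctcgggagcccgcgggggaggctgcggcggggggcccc
Hnrnpul1: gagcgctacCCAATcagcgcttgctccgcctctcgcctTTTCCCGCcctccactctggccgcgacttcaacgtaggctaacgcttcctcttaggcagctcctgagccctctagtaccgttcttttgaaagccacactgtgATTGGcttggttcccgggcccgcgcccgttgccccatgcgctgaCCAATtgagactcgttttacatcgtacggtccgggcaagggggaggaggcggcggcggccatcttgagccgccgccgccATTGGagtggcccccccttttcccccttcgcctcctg
No motif was found in all 3. Of the 46 members with a promoter entry, 37.0% held the ETS motif, against 12.9% of the promoters of 17491 protein-coding genes. The NRF1 motif was in 21.7% of members and 7.2% of protein-coding genes, the E2F motif in 8.7% and 1.6%, the CCAAT box in 50.0% and 42.3%, the E-box in 13.0% and 8.9%, the TATA motif in 15.2% and 14.8%, and the YY1 motif in 2.2% and 2.1%. The median promoter held 26.5 CpG among members and 15.0 among protein-coding genes. These shares describe letters in a window and show no binding.

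Induced and natural cells were compared at each of the 9 stages, to ask where their splicing genes match under the same stage label. A gene was called when its limma test on log2(FPKM + 1), in a fit of all 75 libraries, had a Benjamini-Hochberg adjusted p under 0.05 over 17416 genes, and fold changes are induced over natural on that log2 scale. Between 15 and 32 members were called in bone marrow progenitors, at DN1, at DP and at the single positive stages, 8 in thymic progenitors, and 2 to 4 at each of DN2 to DN4. The share of all genes called ran much the same way, from 31.1% in bone marrow progenitors, 26.4% at CD4_SP and 18.8% at DN1 to 1.5%, 3.54% and 0.741% at DN2, DN3 and DN4. Across the 9 stages 7 members were called at none (Hnrnpa1, Hnrnpf, Sf3a2, Sf3b4, Sf3b5, Snrpc and Srsf2). Hnrnpd, which binds AU-rich mRNA, was higher in induced cells at 6 stages, and Srsf1, the founding SR protein, at 5. Another 17 members were higher in induced cells at one stage and lower at another. Such counts over the stages were not made for all genes tested, so they only describe the members.

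**Figure D4:**
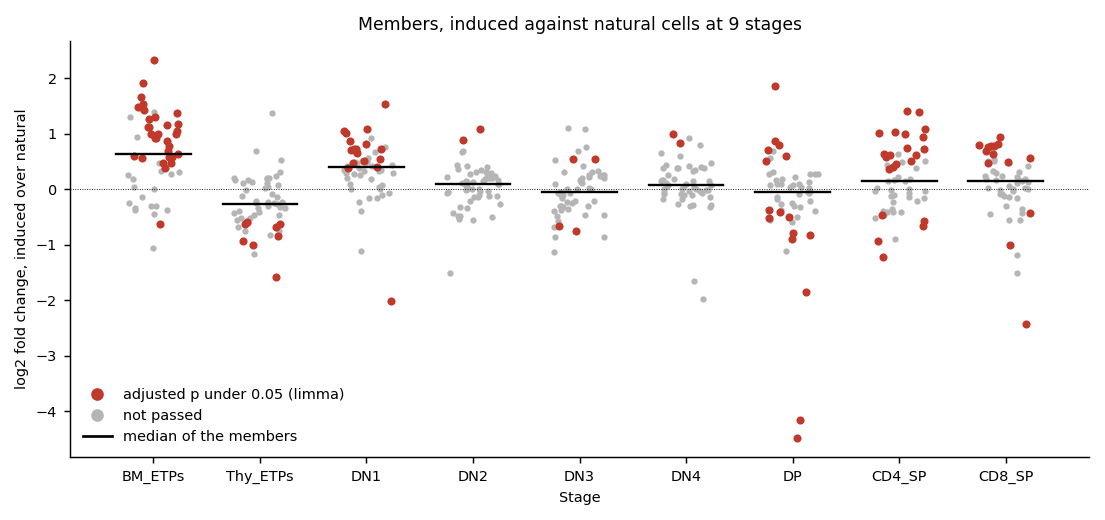
Log2 fold change, induced over natural, of the members at 9 stages. Red points passed an adjusted p of 0.05 and grey points did not, and the black line is the median of the members; Snrpert is left out at DN1 and CD8_SP, where it is listed at 0 in natural cells. The members lie mostly above 0 in BM_ETPs and DN1, and Alyref and Srsf9 are the lowest points at DP.

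In BM_iETPs most splicing genes were higher than in natural BM_ETPs. Of 53 members, 31 rose (58.5%), against 14.4% of all genes tested, and Snrpb alone fell (1.89%), against 16.8%. The members' median log2 fold change was 0.63, against 0.0 over all genes. The hnRNP genes led, with 15 of 20 higher and none lower, followed by 6 of 11 SR protein, 4 of 7 Sm protein and 4 of 9 SF3 subunit genes. Hnrnpu, a scaffold protein of chromatin and nuclear RNA, held 332 and 309 FPKM in BM_iETPs, against 110.5, 114 and 117 FPKM in BM_ETPs, a log2 fold change of 1.48 ± 0.18 (SE, adjusted p = 3.61e-10). Hnrnpl, which binds CA repeats, held 41.2 and 35.8 FPKM in BM_iETPs, against 9.26, 10.4 and 8.90 FPKM in BM_ETPs (1.91 ± 0.42, adjusted p = 0.000188). Neither gene's groups overlapped.

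Alyref averaged 184 ± 21.7 FPKM (SD, n = 2) in BM_iETPs and 35.7 ± 3.94 FPKM (n = 3) in BM_ETPs, a log2 fold change of 2.33 ± 0.71 with an adjusted p of 0.00786, which became 0.0684 without BM_iETPs library 2. After Alyref and Hnrnpl, the next highest fold changes were those of Srsf10 (1.67), Hnrnpa3 (1.54) and Hnrnpul1 (1.49). Snrpb, the gene of Sm proteins B and B', averaged 469 ± 73.1 FPKM in BM_iETPs and 726 ± 58.3 FPKM in BM_ETPs (-0.64 ± 0.19, adjusted p = 0.00566); its adjusted p was 0.149 without BM_iETPs library 1 and 0.0539 with only these 5 libraries in the fit. Of 87 other splicing and export genes, 41 were higher and 3 lower. Several measures moved with this comparison. The 20 proliferation genes had 16 higher and 3 lower, and the 10 myeloid genes summed to 1225 and 1766 FPKM in BM_iETPs, against 32197 to 46052 FPKM in BM_ETPs. The slope of log2 level on GC content, per 10% GC, was -0.383 and -0.236 in BM_iETPs, against 0.435 to 0.559 in BM_ETPs; the members' median GC content was 45.4%, against 50.0% for tested genes. With a correction for that slope, 26 members were higher and none lower, among 28.8% of all genes called, and Snrpb had an adjusted p of 0.6. The part of cell type and proliferation in the result was not tested.

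Against pro/pre-B cells, whose B lineage level they shared, BM_iETPs differed at fewer members: 8 rose (15.1%) and none fell, against 8.1% and 7.4% of all genes. Hnrnpll, described above, had the largest fold change, 4.01 ± 0.35 (adjusted p = 3.46e-14). It averaged 28.3 ± 5.66 FPKM (n = 2) in BM_iETPs and 1.41 ± 2.34 FPKM (n = 3) in pro/pre-B cells, and without pro/pre-B library 4 the fold change was 4.77. Snrpd1, an Sm ring protein (0.96), Hnrnpr (0.92), Hnrnpab (0.69) and Hnrnpk, which binds C-rich RNA (0.68), also rose, as did the branch point protein gene Sf3b6 (0.54, adjusted p = 0.0111, and 0.123 and 0.237 without pro/pre-B library 2 and BM_iETPs library 1). Alyref was at 184 ± 21.7 FPKM in BM_iETPs and 112 ± 18.3 FPKM in pro/pre-B cells, which did not pass (0.72, adjusted p = 0.657). Of the other 87 splicing genes, 11 were higher and 3 lower, and 6 of 20 proliferation genes were higher. Also higher were 7 of 10 stress genes (median 1.39) and 5 of 10 myeloid genes (2.04), and 4 of 10 B lineage genes were lower (-0.87); the part of these markers was not tested. Without pro/pre-B library 2, and likewise without BM_iETPs library 1, 5 members passed. With only these 5 libraries in the fit no member passed, and 0.0746% of all genes did.

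In early progenitors of the thymus the direction was the opposite. None of the 53 members was higher in Thy_iETPs than in Thy_ETPs and 8 were lower (15.1%), against 4.49% and 3.78% of all genes (8.27% in all), and the members' median was -0.27. Hnrnpll held 12.6, 22.7 and 15.5 FPKM in Thy_iETPs, against 58.8 and 44.9 FPKM in Thy_ETPs (-1.58 ± 0.35, adjusted p = 0.00116, and 0.111 with a pseudocount of 0.1). The other members that fell were 3 Sm protein genes, Snrpd1 (-1.01) and Snrpe (-0.94) among them, the U2 protein gene Snrpa1 (-0.85), Srsf7 (-0.67), Hnrnpk (-0.62) and another hnRNP gene. Alyref was low in both groups, at 5.48, 7.97 and 6.76 FPKM in Thy_iETPs, against 7.24 and 4.10 FPKM in Thy_ETPs. In the same comparison 16 of 20 proliferation genes were lower. The 8 dendritic genes summed to 4.01 to 12.8 FPKM in Thy_iETPs, against 1260 and 2224 FPKM in Thy_ETPs. Of 6 genes of single positive maturation, 4 were higher and 1 lower (median 2.28). Their sums were 1504 to 1720 FPKM in Thy_iETPs, against 804 and 895 FPKM in Thy_ETPs. Myeloid genes had 4 of 10 higher, DP stage genes 4 of 10 lower, and T lineage genes 2 of 14 higher and 4 lower. The part of these markers in the result was not tested. Snrpe and Snrpa1 also missed without Thy_iETPs library 1 (0.105 and 0.0977), and Snrpa1 without Thy_ETPs library 2 or Thy_iETPs library 2 (0.235 and 0.0634). No member passed without Thy_ETPs library 1 or with only these 5 libraries in the fit, where 5.06% and 0.0919% of all genes passed; Hnrnpll then had adjusted p of 0.0517 and 0.315.

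At DN1 the induced cells again had more splicing gene RNA. In iDN1, 18 members were higher than in natural DN1 (34%), against 9.9% of all genes, and 1 was lower (1.89%), against 8.93%. The median was 0.41, the same without Snrpert. The members that rose included 8 of 20 hnRNP genes, 4 of 7 Sm protein genes and 4 of 11 SR protein genes. Hnrnpll held 77.7, 82.4, 86.2 and 84.1 FPKM in iDN1, against 28.8, 26.3 and 28.8 FPKM in DN1 (1.53 ± 0.29, adjusted p = 5.36e-05). Snrpe (1.08), Hnrnpab (1.04), Srsf5 (1.01) and Hnrnpa0 (0.87) followed, and the groups of each did not overlap.

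Srsf12, an SR protein gene that was listed at 0 in 35 libraries of the series, was the member that fell: it held 1.56, 0.805, 2.24 and 0.272 FPKM in iDN1, against 8.58, 7.26 and 6.67 FPKM in DN1 (-2.02 ± 0.28, adjusted p = 1.14e-07). Snrpert averaged 10.8 ± 5.61 FPKM in iDN1 and was listed at 0 in every natural DN1 library. Alyref did not differ beyond its spread, at 53.1 ± 18.6 FPKM in iDN1 and 58.7 ± 21.5 FPKM in DN1. Of the other 87 splicing genes, 29 were higher and 3 lower. Other markers moved as well. Of 10 DP stage genes, 6 were higher and 0 lower (median 1.64). Their sums were 776 to 1074 FPKM in iDN1, against 164 to 219 FPKM in DN1. Of 20 proliferation genes, 14 were higher, and natural DN1 held more RNA of other cell types: natural killer and cytotoxic genes summed to 2030 to 2473 FPKM in iDN1, against 5596 to 6610 FPKM in DN1, and dendritic genes to 16.4 to 92.5 FPKM in iDN1, against 696 to 954 FPKM in DN1. The GC slope was -0.407 to -0.187 in iDN1, against 0.021 to 0.087 in DN1. With the correction for it, 11 members were higher and 1 lower, with 17.1% of all genes called. Without natural DN1 libraries 1 and 2 and DN2 library 2, 9 were higher and 2 lower. The part of these markers in the result was not tested.

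From DN2 to DN4 few members separated the sources. At DN2, Hnrnpa3 and Hnrnpd were higher in induced cells and none was lower (3.77% called, against 1.5% of all genes). Hnrnpd held 247 and 257 FPKM in iDN2, against 123, 129 and 158 FPKM in DN2 (0.89 ± 0.22, adjusted p = 0.0198). Hnrnpa3 averaged 151 ± 11.7 FPKM in iDN2 and 71.4 ± 13.1 FPKM in DN2 (1.08 ± 0.30, adjusted p = 0.049). These calls rested on the full set of libraries: the count was 0 or 1 whichever of the 5 libraries was left out, with adjusted p of Hnrnpa3 from 0.0592 to 0.414, and of Hnrnpd from 0.0684 to 0.227 in the 4 that ended its call (all but DN2 library 3).

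At DN3, 2 members were higher in induced cells and 2 lower (3.77% each way, against 2.35% and 1.19% of all genes and 3.54% in all). Sf3b1, the SF3B subunit that holds the branch point, averaged 157 ± 7.39 FPKM in iDN3 and 108 ± 17.0 FPKM in DN3 (0.54 ± 0.14, adjusted p = 0.0139), and Srsf11 rose by the same log2 amount, 0.54. Snrpg held 539, 533 and 535 FPKM in iDN3, against 1070.4 and 772 FPKM in DN3 (-0.76 ± 0.19, adjusted p = 0.0125), and Sf3b6 fell by 0.66. None of the 4 passed without DN3 library 1, when Snrpg had an adjusted p of 0.248 and Sf3b1 one of 0.241, and 1 passed without iDN3 library 3, when that of Sf3b6 was 0.0619. Srsf11 had adjusted p of 0.214 without DN3 library 2 and 0.146 without iDN3 library 1.

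At DN4, where splicing gene RNA was highest in both sources, only Srsf5 and Hnrnpd passed, both higher in induced cells (3.77%, against 0.39% of all genes higher and 0.741% called in all). Srsf5 held 89.2, 129, 111 and 116 FPKM in iDN4, against 45.3, 60.4 and 59.3 FPKM in DN4 (1.00 ± 0.20, adjusted p = 0.00208). Hnrnpd averaged 394 ± 29.6 FPKM in iDN4 and 219 ± 8.03 FPKM in DN4 (0.84 ± 0.19, adjusted p = 0.00962). Alyref held 44.9, 62.4, 20.8 and 11.5 FPKM in iDN4, against 142, 111 and 99.5 FPKM in DN4; the groups did not overlap but the difference did not pass (-1.98, adjusted p = 0.122). Without DN4 library 1 no member passed, with adjusted p of 0.0632 for Srsf5 and 0.0546 for Hnrnpd, and without DN4 library 2 only Srsf5 did. With weights for library quality 11 members were higher and 4 lower, among 8.39% of all genes, and Alyref had an adjusted p of 0.00369. Of 10 stress genes, 4 were higher in induced cells at DN4 (median 0.58), 3 at DN3 (0.82) and 2 at DN2 (0.40). None was lower at these stages, and the part of stress genes in the results was not tested.

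At the DP stage the set split. In iDP 6 members were higher than in natural DP (11.3%), against 4.83% of all genes, and 10 were lower (18.9%), against 5.53%, while the median was -0.06. The largest fold change of any member in the 9 comparisons was that of Alyref, which held 3.75, 0.925 and 7.05 FPKM in iDP, against 115, 88.7, 51.2 and 145 FPKM in DP (-4.49 ± 0.59, adjusted p = 1.5e-07). Srsf9 held 2.74, 0.77 and 5.25 FPKM in iDP, against 63.1, 67.5, 60.7 and 52.0 FPKM in DP (-4.15 ± 0.48, adjusted p = 4.49e-09). Hnrnpul1 held 3.30, 4.80 and 3.01 FPKM in iDP, against 15.0, 18.4, 14.9 and 14.6 FPKM in DP (-1.85 ± 0.32, adjusted p = 2.91e-05). In each of these 3 genes every induced library lay below every natural one.

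Smaller falls in iDP were seen for Sf3b6 (-0.90), Hnrnpu (-0.82), Snrpg (-0.78) and 4 other members. The members that rose were Snrpd3 (1.86), Srsf5 (0.87), Sf3b3 (0.80), Srsf1 (0.72), Hnrnpd (0.59) and Hnrnpc, which binds uridine tracts (0.51). Snrpd3, an Sm ring protein, held 30.8, 66.8 and 33.2 FPKM in iDP, against 12.5, 5.57, 5.03 and 31.9 FPKM in DP, so that its groups overlapped. The other 87 splicing genes had 8 higher and 15 lower. Proliferation genes differed little, with 0 of 20 higher and 1 lower, and the myeloid, dendritic and natural killer lists had no gene called. Other lists did have calls. Of 10 stress genes 3 were higher and 3 lower, and of 14 T lineage genes 3 were lower (median -0.32) and 0 higher. DP stage genes had 2 of 10 higher and 1 lower, and B lineage genes 1 of 10 higher and 1 lower. The part of these markers in the result was not tested. With only these 7 libraries in the fit, Srsf9, Hnrnpul1 and Sf3b6 passed, among 0.66% of all genes, and Alyref had an adjusted p of 0.0617. Hnrnpd was no longer called without iDP library 2 or 3 or DP library 2 or 3 (adjusted p of 0.0655 to 0.175), nor Hnrnpc without iDP library 1 or 2 (0.0691 and 0.0545).

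In CD4 single positive cells the induced cells had more RNA of many splicing genes. In iCD4_SP 17 members were higher than in CD4_SP (32.1%), against 14.0% of all genes, and 5 were lower (9.43%), against 12.4%. Snrpb held 633, 722, 788 and 728 FPKM in iCD4_SP, against 221, 252 and 351 FPKM in CD4_SP (1.41 ± 0.16, adjusted p = 1.23e-10), and its groups did not overlap. Hnrnpab (1.04, adjusted p = 6.96e-10), Hnrnpc (1.01), Srsf1 (1.00), Sf3a3 (1.08) and the U1 protein gene Snrpa (0.94) also rose. The 4 SF3 subunit genes and 4 SR protein genes that were called all rose.

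Of the 5 members that fell in iCD4_SP, Hnrnpl had the largest change, with 30.6, 38.5, 23.3 and 40.6 FPKM in iCD4_SP, against 75.5, 127 and 47.6 FPKM in CD4_SP (-1.22 ± 0.35, adjusted p = 0.00543). The others were Hnrnpul1 (-0.93), the X-linked Hnrnph2 (-0.67), Snrpf (-0.58) and Snrpg (-0.46). Without CD4_SP library 2, 14 members were higher and none lower, and these 5 had adjusted p of 0.063 to 0.198. With libraries scaled to equal totals, Hnrnpul1 (-0.65), Hnrnph2 (-0.36), Snrpf (-0.26) and Snrpg (-0.15) had adjusted p of 0.138 to 0.583. Hnrnpul1 (0.208) and Hnrnph2 (0.0735) also missed without iCD4_SP library 2, Snrpf without CD4_SP library 1 or iCD4_SP library 1, 3 or 4 (0.0797 to 0.314), and Snrpg without CD4_SP library 3 or iCD4_SP library 1 (0.0942 and 0.0701). Alyref did not pass, at 71.0 ± 8.13 FPKM in iCD4_SP and 85.2 ± 19.7 FPKM in CD4_SP. Proliferation genes moved further than splicing genes: 19 of 20 were higher, with a median log2 fold change of 2.81, beside 27 higher and 12 lower among the 87 other splicing genes. Stage markers moved as well. The 10 genes of the DP stage had 8 higher and none lower (2059 to 2353 FPKM in iCD4_SP, against 302 to 355 FPKM in CD4_SP), and all 6 genes of single positive maturation were lower (280.1 to 306 FPKM in iCD4_SP, against 1465 to 1720.0 FPKM in CD4_SP). Natural killer and cytotoxic genes had 1 of 8 higher and 5 lower, and the myeloid genes summed to 0 to 1.77 FPKM in iCD4_SP, against 96.3 to 329 FPKM in CD4_SP. Of 10 stress genes, 6 were higher in iCD4_SP and 2 lower (median 0.67). The part of proliferation and of these markers in the result was not tested.

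In the groups labelled CD8 single positive, most Sm protein genes were higher in induced cells. Of 53 members, 12 were higher in iCD8_SP than in CD8_SP (22.6%), against 5.63% of all genes, and 3 were lower (5.66%), against 5.01%. Of the 7 Sm genes, 5 rose and none fell, with a class median of 0.77. Snrpb held 852, 974, 1004 and 863 FPKM in iCD8_SP, against 483, 532 and 553 FPKM in CD8_SP (0.82 ± 0.16, adjusted p = 8.95e-05). Snrpe (0.95) and Snrpd1 (0.80) were next. The iCD8_SP means of these genes lay near those of natural DN4 cells. Snrpb averaged 923 FPKM in iCD8_SP and 917 FPKM in DN4, Snrpe 960 and 1058 FPKM, and Snrpd1 329 and 333 FPKM. The difference between iCD8_SP and DN4 was not tested. Sf3b3 stood at 86.4 ± 0.559 FPKM in iCD8_SP and 50.3 ± 3.49 FPKM in CD8_SP (0.77, adjusted p = 0.0004). The SR protein gene Srsf5 also rose (0.78), and Snrpert averaged 13.4 ± 9.04 FPKM in iCD8_SP and was listed at 0 in every CD8_SP library.

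Srsf9 was again lower in induced cells, with 15.7, 5.36, 9.41 and 9.68 FPKM in iCD8_SP, against 53.9, 50.5 and 62.1 FPKM in CD8_SP (-2.44 ± 0.48, adjusted p = 0.000153). Hnrnpul1 fell with it (-1.01, adjusted p = 0.0268), with 4.39, 4.18, 2.88 and 2.68 FPKM in iCD8_SP, against 8.17, 8.71 and 7.21 FPKM in CD8_SP; leaving out iCD8_SP library 3 or 4, or CD8_SP library 1 or 2, gave it adjusted p of 0.0709 to 0.102. Srsf11 fell by 0.44 (adjusted p = 0.0172, and 0.167, 0.0655 and 0.0764 without CD8_SP library 2, iCD8_SP library 1 and iCD8_SP library 2). Alyref had 3 induced libraries between 73.7 and 92.4 FPKM and 1 at 4.77 FPKM, against 130.4, 95.2 and 139 FPKM in CD8_SP, and did not pass (-1.52, adjusted p = 0.0993). Of the 87 other splicing genes, 18 were higher and 5 lower. Proliferation genes had 4 of 20 higher, and myeloid genes summed to 1.75 to 6.46 FPKM in iCD8_SP, against 274 to 364 FPKM in CD8_SP. Of the 6 genes of single positive maturation 5 were lower in iCD8_SP (median -2.80). The stage of iCD8_SP was taken from its label, and these genes do not show that it matched that of CD8_SP. Also lower in iCD8_SP were 5 of 8 dendritic genes (-2.25) and 5 of 8 natural killer and cytotoxic genes (-1.88). The part of stage and of these markers in the result was not tested.

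Natural thymocytes gained splicing gene RNA at DN4, the stage after selection for the T cell receptor beta chain. Compared with DN3, 9 members were higher in DN4 (17%), against 3.53% of all genes, and none was lower, against 3.2% (6.72% in all). Of the 9, 6 were hnRNP genes and 2 SR protein genes. Hnrnpll held 74.8, 73.4 and 75.3 FPKM in DN4, against 25.9 and 20.2 FPKM in DN3 (1.66 ± 0.35, adjusted p = 0.000914, and 0.1 with a pseudocount of 0.1). Srsf7 averaged 541 ± 95.6 FPKM in DN4 and 296 ± 46.3 FPKM in DN3 (0.86, adjusted p = 0.000368), and Srsf3 rose by 0.67. Without DN3 library 2 their adjusted p were 0.0514 and 0.177. Of 20 proliferation genes 13 were higher, as were 9 of the 87 other splicing genes, with 1 lower. The count was 2 without DN3 library 2, 4 without DN4 library 3 and 5 without DN4 library 2, and 0 with only these 5 libraries in the fit, where 0.00574% of all genes passed.

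From DN4 to DP the spliceosome's core fell in both sources. In induced cells 22 members were lower in iDP than in iDN4 (41.5%), against 10.4% of all genes, and 2 were higher (3.77%), against 9.2% (19.6% in all). In natural cells 16 were lower in DP than in DN4 (30.2%), against 12.8% of all genes, and 6 higher (11.3%), against 11.8%. All 7 Sm protein genes fell in induced cells and 6 of 7 in natural cells, with class medians of -1.05 and -1.04. Snrpd1 held 154, 156 and 181 FPKM in iDP, against 353, 348, 353 and 346 FPKM in iDN4 (-1.09 ± 0.18, adjusted p = 3.3e-06). In natural cells it held 132, 178, 189 and 133 FPKM in DP, against 313, 324 and 362 FPKM in DN4 (-1.09 ± 0.18, adjusted p = 2.91e-06).

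**Figure D5:**
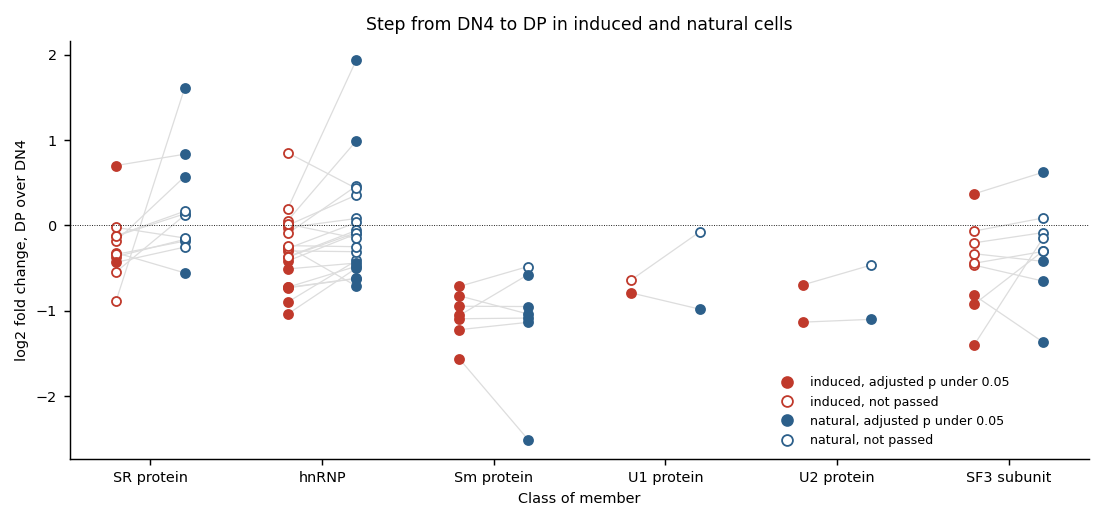
Log2 fold change of each member from DN4 to DP by class, in induced cells (red, left of each pair) and natural cells (blue, right), joined by a line; filled points passed an adjusted p of 0.05. All 7 Sm protein genes lie below 0 in both sources, and Srsf9 and Hnrnpul1 are the highest natural points of their classes.

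Of the lower members, 12 were shared, which is 54.5% of the 22 in induced cells and 75% of the 16 in natural cells: Snrpb, Snrpd1, Snrpd2, Snrpd3, Snrpf and Snrpg of the Sm ring, Snrpa of U1, Snrpa1 of U2, Sf3b3, Hnrnpab, Hnrnpk and Hnrnpu. The 2 members that were higher in both were Sf3b1 (0.37 in induced cells and 0.62 in natural cells) and Srsf5 (0.70 and 0.84); in induced cells both lost their call without iDP library 3 (adjusted p of 0.0771 and 0.0911), and Sf3b1 also without iDN4 library 3 or 4 (0.0515 and 0.0525). None was called in opposite directions. The matching shares over all genes tested were not computed, so this overlap only describes the members. Snrpd3 had the largest natural fall (-2.51 ± 0.40, adjusted p = 1.14e-06), with 12.5, 5.57, 5.03 and 31.9 FPKM in DP, against 56.5, 80.3 and 59.2 FPKM in DN4. Alyref had the largest induced one (-2.83 ± 0.59, adjusted p = 0.000218), whereas in natural cells it was at 99.8 ± 39.7 FPKM in DP and 118 ± 22.1 FPKM in DN4, which did not pass.

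The sources differed in a few regulators at this step. Hnrnpul1 rose in natural cells (1.94, adjusted p = 1.98e-06), with 15.0, 18.4, 14.9 and 14.6 FPKM in DP, against 7.35, 1.88 and 2.39 FPKM in DN4; in induced cells it was at 3.70 ± 0.961 FPKM in iDP and 3.08 ± 0.572 FPKM in iDN4. Srsf9 rose in natural cells as well (1.62, adjusted p = 0.00825), but its DN4 libraries held 64.7, 27.2 and 3.38 FPKM, and without DN4 library 3 the adjusted p was 0.526. The test of the difference between the sources called 3 members, all with the lower change in induced cells (5.66%, against 0.597% of all genes lower, 0.5% higher and 1.1% in all): Srsf9 (-2.50, adjusted p = 0.0481), Hnrnpul1 (-1.75, adjusted p = 0.0321) and Srsf11 (-0.76, adjusted p = 0.0181). None of the 3 passed without DN4 library 3 or without iDP library 1, and without DN4 library 3 their adjusted p were 0.404, 0.13 and 0.125. One passed without DN4 library 2, DP library 2, iDN4 library 2 or iDN4 library 3, and Srsf9 missed without any of 11 of the 14 libraries (0.0556 to 0.404). The proliferation genes had 5 of 20 lower in each source, and 0 higher in induced cells and 2 in natural cells. Of the 87 other splicing genes, 11 were higher and 25 lower in induced cells, and 15 higher and 17 lower in natural cells. With only the 7 natural libraries in the fit, 12 members passed, among 12.5% of all genes.

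From DP to CD4_SP the sources took different courses. In induced cells 6 members were higher in iCD4_SP than in iDP (11.3%) and 6 lower (11.3%), against 5.9% and 3.96% of all genes. In natural cells 5 were higher in CD4_SP than in DP (9.43%) and 16 lower (30.2%), against 13.2% and 13.5% of all genes. Alyref rose in induced cells, with 70.3, 73.0, 80.1 and 60.5 FPKM in iCD4_SP, against 3.75, 0.925 and 7.05 FPKM in iDP (4.09 ± 0.59, adjusted p = 9.8e-07). Srsf9 held 41.6, 6.08, 37.5 and 24.5 FPKM in iCD4_SP, against 2.74, 0.77 and 5.25 FPKM in iDP (2.75 ± 0.48, adjusted p = 3.72e-05). In natural cells neither gene was called. Hnrnpu (0.88) and Snrpb (0.74) rose in induced cells and were the 2 members called the opposite way in natural cells.

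The members that fell from DP to CD4_SP in natural cells were led by SR proteins and hnRNPs: Srsf7 (-0.98, adjusted p = 1.16e-07), Srsf1 (-0.88), Hnrnpm (-0.87) and Srsf3 (-0.80). Snrpd3 was the natural member that rose most (2.09, adjusted p = 2.79e-05), with 46.4, 60.3 and 39.6 FPKM in CD4_SP. In induced cells Srsf5 fell most (-1.20, adjusted p = 1.61e-05), with 64.3, 76.5, 83.4 and 89.1 FPKM in iCD4_SP, against 134, 193 and 226 FPKM in iDP. Hnrnpa0 (-0.72), Srsf1 (-0.59) and Srsf3 (-0.55) fell too; Srsf1 had an adjusted p of 0.0233, which was between 0.0508 and 0.0892 without any 1 of the 3 iDP libraries or iCD4_SP library 1. Hnrnpa1, which binds exonic silencers, rose in both sources (0.81 in induced and 0.66 in natural cells); its adjusted p was 0.446 in induced cells without iDP library 2, and 0.198 and 0.0954 in natural cells without CD4_SP library 1 and DP library 4, and 0.13 there with equal library totals.

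The test of the difference called 12 members (22.6%, against 17.3% of all genes), 10 with the higher change in induced cells (18.9%, against 9.65% of all genes) and 2 with the lower (3.77%, against 7.69%). The largest were Alyref (4.25 ± 0.84, adjusted p = 0.000122), Srsf9 (3.25 ± 0.68, adjusted p = 0.000275), Snrpb (1.46), Hnrnpu (1.40), Sf3b6 (1.05) and Srsf7 (0.96), and Snrpd3 (-2.28) and Srsf5 (-0.89) had the lower change. The adjusted p of Srsf5 was 0.0778 without CD4_SP library 2 and 0.0903 without iDP library 3. Proliferation genes behaved differently between sources at this step as well, with 5 of 20 higher and none lower in induced cells, none higher and 19 lower in natural cells, and all 20 called in the test of the difference. In that test 8 of 10 DP stage genes had the higher change in induced cells (median 3.94), and all 6 genes of single positive maturation (-2.41) and 5 of 8 natural killer and cytotoxic genes (-2.20) the lower one; their part in the members' difference was not tested. With only these libraries in the fit, 1 member passed in induced cells (1.52% of all genes) and 4 in natural cells (7.55%).

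In the B lineage, mature B cells held less splicing gene RNA than pro/pre-B cells. Of 53 members, 24 were lower in mature B cells (45.3%), against 13.4% of all genes, and only Srsf5 was higher (1.89%), against 11.5%. Of 20 hnRNP genes 13 fell and none rose. Alyref held 11.8, 6.47, 7.24 and 46.9 FPKM in mature B cells, against 92.6, 129 and 115 FPKM in pro/pre-B cells (-3.01 ± 0.59, adjusted p = 5.53e-05). Srsf9 held 7.91, 2.88, 7.40 and 3.62 FPKM in mature B cells, against 38.9, 36.6 and 35.5 FPKM in pro/pre-B cells (-2.65 ± 0.48, adjusted p = 1.18e-05). Hnrnpul1 (-1.26), the third member of the group that was low in iDP, fell as well.

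Hnrnpab averaged 154 ± 16.3 FPKM in mature B cells (n = 4) and 371 ± 17.9 FPKM in pro/pre-B cells (n = 3), with -1.27 ± 0.12 and an adjusted p of 4.47e-13. Hnrnpu (-1.22) and Hnrnpd (-1.08) were alike in size. Srsf5 averaged 135 ± 32.2 FPKM in mature B cells and 82.4 ± 18.0 FPKM in pro/pre-B cells (0.70, adjusted p = 0.00536), with an adjusted p of 0.094 without pro/pre-B library 1 and 0.256 with libraries scaled to equal totals. All 20 proliferation genes fell in mature B cells, with a median of -4.74, and of the 87 other splicing genes 7 were higher and 26 lower. The part of proliferation in the result was not tested. With only these 7 libraries in the fit, 12 members passed, among 12.3% of all genes, and Alyref had an adjusted p of 0.0565.

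Stem cells and multipotent progenitors differed little in these genes. In MPP, 2 members were higher than in HSC (3.77%) and none lower, against 3.12% and 5.01% of all genes. Hnrnph1 held 906, 1128, 900.1 and 912 FPKM in MPP, against 704, 755, 611 and 764 FPKM in HSC (0.44 ± 0.14, adjusted p = 0.0301). Sf3b1 averaged 95.4 ± 15.4 FPKM in MPP and 72.9 ± 3.00 FPKM in HSC (0.37 ± 0.11, adjusted p = 0.014). Both calls were lost without MPP library 2 (adjusted p of 0.16 and 0.166), and that of Hnrnph1 also without HSC library 1 or 3 (0.0608 and 0.151). Both groups held under 12 FPKM of Alyref.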

How the data were processed

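The authors deposited a table of FPKM values for 76 libraries of 1000 sorted cells; per the submitters' processing notes it was made with bcl2fastq, TopHat, Cufflinks 2.2.1 and Cuffnorm on NCBIM37, and the normalization Cuffnorm used is not given in the sources used here. Pro/pre-B library 3 held the same values as library 1 and was left out, which left 75 libraries in 24 groups. Symbols came from GENCODE vM21 (GRCm38, not the authors' build) for 86.7% of the gene IDs, GC content and transcript copies from the same release (blastn 2.17.0), and promoters from RefSeq; no coordinates of the deposited table were used. Because FPKM are not counts, depth per library is known only from the spacing of low values, and its limits fall hardest on low genes.

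The 17416 genes that reached 1 FPKM in 2 libraries or more were tested on log2(FPKM + 1) with limma 3.58.1 in R 4.3.3, two-sided, in a fit of 1 mean per group over all 75 libraries with 51 residual degrees of freedom. P-values were adjusted by Benjamini-Hochberg over all genes tested, with a threshold of 0.05. Adding 1 understates the fold change of low genes, and the shared fit assumes that groups of 2 to 4 libraries vary alike. The steps were tested on simulated data. Summaries and figures used Python 3.11.15, numpy 2.4.6, pandas 2.3.3 and matplotlib 3.10.9. Any member could be named; in each comparison statistics went first to Alyref and to the 6 highest and 6 lowest fold changes among called members whose higher group averaged 5 FPKM or more. The members, the lists of other genes and the tests were chosen with earlier results of these data known. Alternatives were a pseudocount of 0.1, no filter, equal library totals, quantile normalization, library weights, a replicate block, a fit of only the groups compared, the removal of 3 natural DN1 and DN2 libraries, each library left out in turn and, chosen after seeing the data, a correction for GC content.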

Additional observations from a re-analysis of the deposited data

Results flagged for a closer look

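In 13 of 120 pairs of gene and group, checked over 15 members, 1 library lay far from the others of its group. Chance alone marks about 1 in 20 pairs. Only groups of 4 libraries were checked in this way, and smaller groups were not. Among them, Alyref stood at 46.9 FPKM in mature B library 4 and Srsf1 at 141 FPKM in mature B library 3. Srsf2, a protein of nuclear speckles, stood apart at 62.1 FPKM in HSC library 3 and 118 FPKM in MPP library 1. It also stood apart at 60.3 FPKM in iCD8_SP library 4. In groups of 3 libraries Srsf2 varied widely in DN1 (46.7 ± 54.2 FPKM, SD) and CD8_SP (60.7 ± 58.8 FPKM). The natural DP group had libraries apart for Hnrnpa1 (86.3 FPKM, library 4), Hnrnpll (83.2 FPKM, library 2), Hnrnpul1 (18.4 FPKM, library 2), Snrpa1 (40.9 FPKM, library 3) and Sf3b1 (193 FPKM, library 1). Sf3b1 also stood apart at 118 FPKM in MPP library 2, whose removal ended both calls between MPP and HSC, and at 145 FPKM in iCD4_SP library 2. Hnrnpll in mature B library 1, at 0.562 FPKM, was apart only because the other 3 libraries were listed at 0.

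The test of a difference between induced and natural cells, on the log2(FPKM + 1) scale, passed for 3 members at the step from DN4 to DP and 12 at that from DP to CD4_SP; the 11 results with statistics above, on 10 members, are these. From DN4 to DP the induced change was lower than the natural one for Srsf9 (-2.50), Hnrnpul1 (-1.75) and Srsf11 (-0.76). From DP to CD4_SP it was higher for Alyref (4.25), Srsf9 (3.25), Snrpb (1.46), Hnrnpu (1.40), Sf3b6 (1.05) and Srsf7 (0.96), and lower for Snrpd3 (-2.28) and Srsf5 (-0.89). Srsf9 appears at both steps, with opposite signs, and both tests share the iDP and DP libraries.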

How the results depend on the processing

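Counts are members called. With only the groups compared in the fit, 13 of 19 counts moved by over 1.5 times: to 0 in Thy_ETPs, DN2 and DN3 (induced against natural), DN4 against DN3 and BM_iETPs against pro/pre-B cells; to 1 in MPP against HSC, the difference at the DP step and induced CD4_SP against DP; to 3 at DP, 4 in natural CD4_SP against DP, and 12 at CD4_SP, in natural DP against DN4 and in mature B against pro/pre-B cells. Such fits have fewer libraries to estimate the spread. Library weights gave 15 at DN4, 9 at DP and in natural CD4_SP against DP, 4 in DN4 against DN3 and 1 at DN3. Equal library totals gave 5 in Thy_ETPs and 0 at the DP step difference; quantile normalization gave 0 there, 3 in DN4 against DN3 and 1 in MPP against HSC. At DN2 a pseudocount of 0.1, no filter and the GC correction each gave 1. Without natural DN1 libraries 1 and 2 and DN2 library 2 the count was 11 at DN1 and 0 at DN2, and the GC correction gave 12 at DN1. The causes were not tested.

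With each library left out in turn, the counts ran from 22 to 32 in BM_ETPs, 0 to 8 in Thy_ETPs, 15 to 20 at DN1, 0 to 1 at DN2, 0 to 5 at DN3, 0 to 3 at DN4, 11 to 17 at DP, 14 to 22 at CD4_SP and 11 to 14 at CD8_SP. They ran from 0 to 3 in MPP against HSC, 2 to 7 in DN4 against DN3, 20 to 23 and 18 to 23 in induced and natural DP against DN4 (0 to 3 for the difference), 8 to 12 and 15 to 21 in induced and natural CD4_SP against DP (10 to 15 for the difference), 23 to 27 in mature B and 5 to 9 in BM_iETPs against pro/pre-B cells. The sign turned only for Alyref where it was not called: its log2 fold change lay between -0.10 and 0.59 in Thy_ETPs, -0.38 and 0.12 at DN1, and -0.44 and 0.05 in natural CD4_SP against DP, and was 0.07 at CD4_SP with equal totals. Over all left-out libraries, 900 single-gene results kept direction and side of the threshold and 138 lost their call.

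Same-numbered libraries of compared groups deviated together with r of -0.040 to 0.131, so pairing by number was not assumed. The highest r was in MPP against HSC, where all 4 pairs were at 0.0245 or more. Members summed to 6525 and 6718 FPKM in HSC libraries 1 and 2, against 7526 and 7353 FPKM in libraries 3 and 4. In MPP the same libraries held 6752 and 6614 FPKM, against 7346 and 7626 FPKM. The replicate block moved no count by over 1.5 times; Srsf9 at the DP step (-2.55, adjusted p = 0.0578) and Hnrnph3 in induced CD4_SP against DP (-1.06, adjusted p = 0.0575) lost their limma calls.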

Other observations

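Mature myeloid cells, which enter no comparison above because they have 2 shallow libraries, lay outside the range of all other 73 libraries for 24 of the 53 genes. Both libraries were above every other for 9 members (17%, against 12.1% of all genes tested): Hnrnpa3, Hnrnpl, Hnrnpul1, Hnrnpul2, Sf3a2, Srsf2, Srsf4, Srsf5 and Srsf9. Sf3a2, an SF3A subunit, held 53.7 and 48.8 FPKM there and at most 6.96 FPKM elsewhere, and Hnrnpul1 held 119 and 120.5 FPKM. Both libraries were below every other for 15 members (28.3%, against 4.08% of all genes), among them the Sm protein genes Snrpb, Snrpd2, Snrpe, Snrpf and Snrpg. The 7 Sm protein genes summed to 686 and 707 FPKM in mature myeloid cells and to at least 1231 FPKM in every other library. These libraries had the lowest depth of the series, and its part in these values was not tested.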
